A study of Mus musculus with 9 samples.

Results

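The mitochondrial respiratory chain genes described here are the nuclear genes for complexes I to IV and for ATP synthase in mouse thymic epithelial cells (TEC). They were taken by symbol from the deposited table as every gene starting with Nduf, Sdh followed by a, b, c or d, Uqcr, Cox4 to Cox8 or Atp5. This gave 91 of 15080 genes, of which 87 passed the filter on low counts and were tested among 11636 genes. The 4 that did not pass were Ndufa11, Cox7a1, Ndufa4l2 and Sdhaf3. The letters also catch 9 assembly factors and 1 pseudogene, Ndufs5-ps, which are counted as members and described apart from the subunits.

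TEC had been sorted from enzymatically dissociated thymi of young wild-type male mice, and RNA 3′ ends were sequenced in bulk by MARS-seq. In the rAREG group (n = 5 libraries) 1 µg rAREG had been injected into the thymus 10 days before collection, and the vehicle group (n = 4 libraries) had received PBS at matched age. AREG is the symbol of amphiregulin, a ligand of the epidermal growth factor receptor. Whether a library stands for a separate mouse is not said in the labels, and the p-values therefore cover library-to-library spread, part of which may be technical. In bulk RNA, fewer cells of a type and less RNA per cell cannot be told apart.

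In the respiratory chain, complexes I and II pass electrons from NADH and succinate to ubiquinone, complex III passes them to cytochrome c and complex IV passes them to oxygen. Complexes I, III and IV pump protons out of the matrix, and ATP synthase lets them return through its Fo part to drive ATP synthesis in its F1 part. A few core subunits are encoded in mitochondrial DNA and the rest, including all members here, in the nucleus. Several complex IV subunits have paired genes, 1 used in most tissues and 1 used mainly in muscle, lung or testis. TEC build the stroma on which thymocytes mature and present self-antigens to them.

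The libraries held 1523246 to 2159115 counts, and no pair within a group was alike enough to be a repeat. Summed over 11 markers of thymic epithelium, including Epcam, Krt8, Krt5, Foxn1 and Cd74, the level was 34579 to 43262 CPM, the counts scaled to a common library size, in vehicle and 37194 to 46474 CPM in rAREG libraries, and Aire was the marker among them that rose (log2 fold change 0.67, edgeR adjusted p = 0.037). The 12 thymocyte markers in the table summed to 103 to 154 CPM in vehicle and 104 to 178 CPM in rAREG libraries. The 7 fibroblast markers summed to 259 to 870 CPM and 225 to 515 CPM, and the 15 dissociation response genes to 28483 to 37106 CPM and 21159 to 32364 CPM, in vehicle and rAREG libraries in turn. The ranges of the groups overlapped for each of these sums, but single genes within them differed. Of the 15 dissociation response genes, 12 estimates were below 0 (median log2 fold change -0.47), and Egr1 fell (-0.60, edgeR adjusted p = 0.044). An unadjusted p under 0.05 was found for 7 of the 15 (46.7%), against 13.3% of all tested genes. The 3 above 0 were Hspa1a (0.082), Hspa1b (0.12), the most abundant of the list, and Dusp1 (0.060). Whether the genes of this list differed through dissociation or through the injection was not tested. All 8 tested markers of muscle-like TEC were above 0 (median 1.13), 5 with an unadjusted p under 0.05 and none called by edgeR. Of the 4 tested fibroblast markers, 3 were below 0 (median -0.48), with Col3a1 among them at -0.044. The other, Pdgfrb, was at 0.73 (edgeR adjusted p = 0.29) and was the 1 marker of the list with an unadjusted p under 0.05. The part of these cells and responses in the values below was not tested beyond the alternatives given beside the results and in the closing section.

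Sequence upstream of the start sites is shown for the 3 members with the smallest p-values between the groups (Cox5a, Ndufc2 and Uqcrfs1) and for Cox6a1, an abundant member whose promoter carries matches to 2 of the motifs searched. Each is the stretch from 250 to 51 bases before the start site in RefSeq's promoter table for GRCm38.p6, 5′ to 3′ on the gene's strand, and capitals mark motif matches. The Cox5a stretch (chr9:57520982-57521181, plus strand), the Ndufc2 stretch (chr7:97399753-97399952, plus strand) and the Uqcrfs1 stretch (chr13:30545367-30545566, minus strand) have no match to the 4 motifs below. The Cox5a start in that table lies inside the outer limits RefSeq gives for the gene. In the Cox6a1 stretch (chr5:115349009-115349208, minus strand), capitals mark NRF1 motif matches, the first run holding a match on each strand; the runs begin 162 and 117 bases before the start.
Cox5a: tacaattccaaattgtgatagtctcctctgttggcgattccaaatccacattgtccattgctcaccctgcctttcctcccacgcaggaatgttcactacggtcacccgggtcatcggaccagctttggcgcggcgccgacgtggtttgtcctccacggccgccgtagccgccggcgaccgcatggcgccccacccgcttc
Ndufc2: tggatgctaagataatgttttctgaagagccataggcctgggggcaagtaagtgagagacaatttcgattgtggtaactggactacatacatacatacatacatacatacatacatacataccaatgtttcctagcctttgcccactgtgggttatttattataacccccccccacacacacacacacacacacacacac
Uqcrfs1: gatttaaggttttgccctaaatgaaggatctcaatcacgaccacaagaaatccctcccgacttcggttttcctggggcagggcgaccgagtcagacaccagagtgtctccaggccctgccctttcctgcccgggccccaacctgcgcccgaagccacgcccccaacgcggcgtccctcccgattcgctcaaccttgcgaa
Cox6a1: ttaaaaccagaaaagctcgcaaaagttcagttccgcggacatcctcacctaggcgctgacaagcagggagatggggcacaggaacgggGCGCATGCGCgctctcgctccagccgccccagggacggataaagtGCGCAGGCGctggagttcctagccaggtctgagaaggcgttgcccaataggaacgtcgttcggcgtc

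RefSeq's table held 80 promoters for 75 of the 91 members, each from 250 bases before to 50 after the start, and 4 motifs of factors known from textbooks were searched on both strands. NRF1 and the ETS factor GABP are the classical activators of nuclear respiratory genes, YY1 binds near many of their start sites, and the TATA box marks another promoter type. The letters GCGCANGCG, for NRF1, were in 27.5% of the member promoters, against 12.2% of 11660 promoters of the other tested genes and 6.25% of all 32851 promoters. The letters AAGATGGCG, for YY1, were in 10.0%, 2.77% and 1.40%, in the same order. The letters CCGGAAG, for ETS factors, were in 26.2%, 16.5% and 8.86%, but with a final T added (CCGGAAGT) they were in 6.25%, 7.53% and 3.89%. TATAAA was in 11.2%, 8.28% and 13.6%. No matches of different motifs overlapped within a member promoter, and 45 of the 80 held at least 1 of the 4. The motifs were chosen with the results known and a match is a description of the letters only. In the full window, Cox5a, Ndufc2 and Uqcrfs1 had no match to any of the 4, and Cox6a1 had a further ETS match 16 bases before its start.

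Respiratory chain transcripts were abundant in TEC of both groups. Together the 91 members took 2.75% to 3.04% of all counts of a library. MARS-seq counts 1 tag near the 3′ end per molecule, so CPM levels of different genes are compared here without division by transcript length. The median tested member stood at 275 CPM, against 26.3 CPM over all tested genes, and 63 of the 87 were among the top 10% of genes by level. The members also varied little: the coefficient of variation over the 9 libraries had a median of 11.2%, against 19.6% for all tested genes, a comparison that mixes in the higher counts of the members. The plot of levels by complex shows how far the subunits of each complex lay apart.

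**Figure D1:**
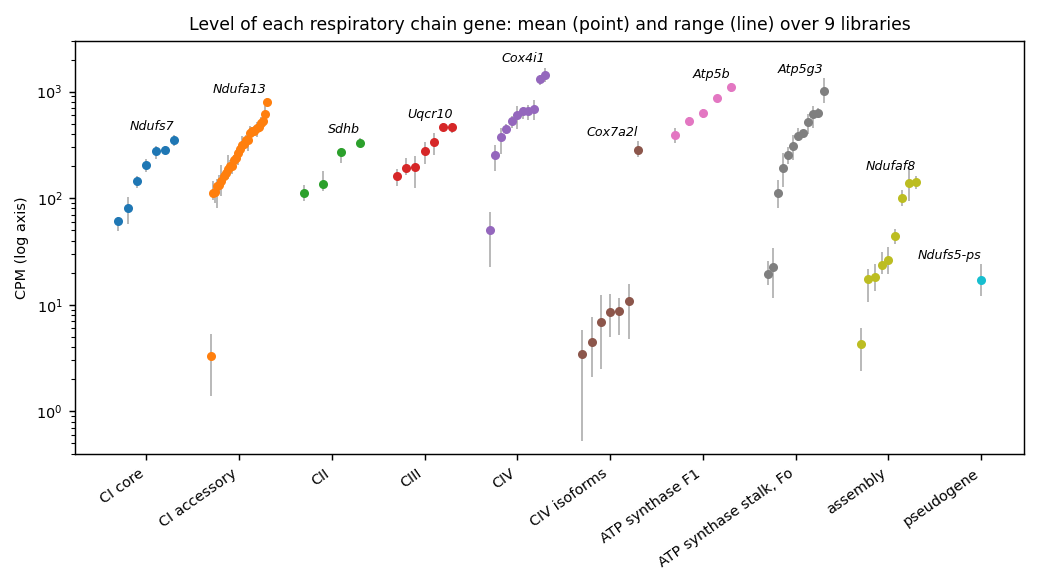
Mean level of each of the 91 members over 9 libraries (points; vertical lines run from the lowest to the highest library) in CPM on a log axis, by complex (CI to CIV, complexes I to IV), with the most abundant gene of each group named. Subunits of complexes I to IV and of ATP synthase mostly lie above the all-gene median of 26.3 CPM, up to 1424 CPM, while the complex IV isoforms other than Cox7a2l lie near 10 CPM or lower.

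In complex I, the NADH dehydrogenase, Ndufs7, which carries an iron-sulfur cluster close to the quinone site, was the most abundant core subunit with 377, 316, 307 and 393 CPM in the 4 vehicle libraries. Its rAREG libraries had 346, 357, 346, 384 and 361 CPM, inside the vehicle range. Ndufs1, which holds several of the iron-sulfur clusters of the same arm, was the lowest core subunit at a mean of 60.8 CPM. Among 28 accessory subunits Ndufa13, also known as GRIM-19, was highest with 798, 776, 785 and 862 CPM in vehicle and 767, 785, 848, 861 and 781 CPM in rAREG libraries. The remaining tested accessory subunits ran down to Ndufs4 at 112 CPM, so subunits present at 1 copy per complex differed several-fold in counted transcript. Ndufa11 was the exception, with 5, 4, 10 and 6 counts in vehicle and 5, 10, 3, 8 and 6 counts in rAREG libraries, and was not tested.

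In complex II, the succinate dehydrogenase, the iron-sulfur subunit Sdhb was highest at a mean of 328 CPM, and the flavin-carrying catalytic subunit Sdha was lowest at 112 CPM. The membrane anchors Sdhc and Sdhd lay between, at 269 and 136 CPM. In complex III, the small subunits Uqcr10 (466 CPM) and Uqcr11 (463 CPM) were highest. The large core proteins Uqcrc1 and Uqcrc2 stood at 194 and 161 CPM. The order of Uqcr10 and Uqcr11 is within their spread over libraries, as is that of Uqcrc1 and Uqcrb (195 CPM).

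In complex IV, cytochrome c oxidase, Cox4i1 was the most abundant member of all, with 1342, 1224, 1367 and 1450.2 CPM in vehicle and 1374, 1525, 1454, 1676 and 1406 CPM in rAREG libraries. The next was Cox6a1, with 1215, 1146, 1287 and 1339.7 CPM in vehicle and 1339, 1416, 1385, 1418 and 1384 CPM in rAREG libraries. Their ranges overlap, and so do those of the next subunits Cox8a, Cox5b and Cox6b1, with means of 692, 664 and 652 CPM. Ndufa4, first assigned to complex I and now counted as a complex IV subunit, was the lowest at 49.9 CPM. In ATP synthase, the catalytic beta subunit Atp5b was highest at 1104 CPM, above the alpha subunit Atp5a1 at 529 CPM, although the F1 head holds them in equal number. Atp5l, which sits in the Fo part where the enzyme forms dimers, was at 19.2 CPM, but 70.1% of the 50-base words in the last 300 bases of its transcript also occur in another gene.

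Such sharing limits a few levels. Of the 87 members with a transcript in GENCODE M21, 65 shared none of these 50-base words with any other gene, and 4 shared more than 50% of them: Cox7c (99.2%), Atp5g2 (98.4%), Atp5l (70.1%) and Ndufs3 (53.0%). Their counts are uncertain, because reads from a near-identical copy may have been split or dropped. By position, 21 of the 87 members found in GENCODE M21 overlap another gene of the table, among them Cox4i1, Ndufa13 and Atp5j. Overlaps with genes outside the table are not in this count, such as Gm16053, a pseudogene on the same strand as Ndufc2. The sources used here do not say whether counting used strand. Subunits such as Uqcrq, Ndufs5 and Ndufb1, and the subunits encoded in mitochondrial DNA, are not analysed here.

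The study's comparison of rAREG with vehicle asks how TEC transcripts differed 10 days after the injection. No member passed an edgeR adjusted p of 0.05 over all tested genes, where 122 of 11636 genes, 1.05%, were called. At an unadjusted p under 0.05 there were 8 members of 87, or 9.20%, against 13.3% of all tested genes. Of these 8, 5 were higher in rAREG (6.82% of all tested genes were) and 3 lower (6.44%). This count moved with the libraries and the model: it was 17 of 88 (19.3%, against 16.5% of all genes in that fit) without vehicle 4, 13 (14.9%, against 14.4%) without rAREG 3, 5 of 89 (5.62%, against 9.30%) without vehicle 1 and 4 (4.60%, against 12.9%) without rAREG 5. It was 14 (16.1%, against 11.2%) with the dissociation response score as a covariate and 13 (14.9%, against 14.8%) with limma voom, so the members' share stood on either side of that of all genes. DESeq2 called 2 members, Cox5a and Ndufc2, with 1.96% of genes called. Limma voom with sample weights (1.31% of genes called) and edgeR on total counts without scaling factors (1.18%) called the same pair. In the authors' deposited table the adjusted p was 0.0150 for Cox5a and 0.0021 for Ndufc2, and they were the 2 members among its 168 genes (1.11%) under 0.05. The call on these genes turned on the tool and the scaling, while the size of their differences changed little.

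The median log2 fold change (rAREG over vehicle) was 0.0073 over the tested members, 46 above 0 and 41 below, and -0.0054 over all tested genes. Estimates within 1.2-fold of no difference were found for 78 of 87 members, against 68% of all genes, and within 1.5-fold for 86, against 93.2%. This comparison too mixes in the higher counts of the members, whose median standard error was 0.106, against 0.185 for all tested genes. The 95% interval itself lay within 1.2-fold for 22 members and within 1.5-fold for 79. For most members a difference above 1.5-fold falls outside this interval, which is narrower than the F test implies. Summed over all members, the level was 28509 ± 866 CPM (SD, n = 4) in vehicle and 28983 ± 1239 CPM (SD, n = 5) in rAREG libraries, with overlapping ranges. In 5 members (5.75%, against 4.92% of all genes, 2.48% higher) vehicle and rAREG libraries were fully separated: Cox5a, Ndufc2, Ndufb8 and Atp5b were higher in all rAREG libraries and Ndufa2 was lower.

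**Figure D2:**
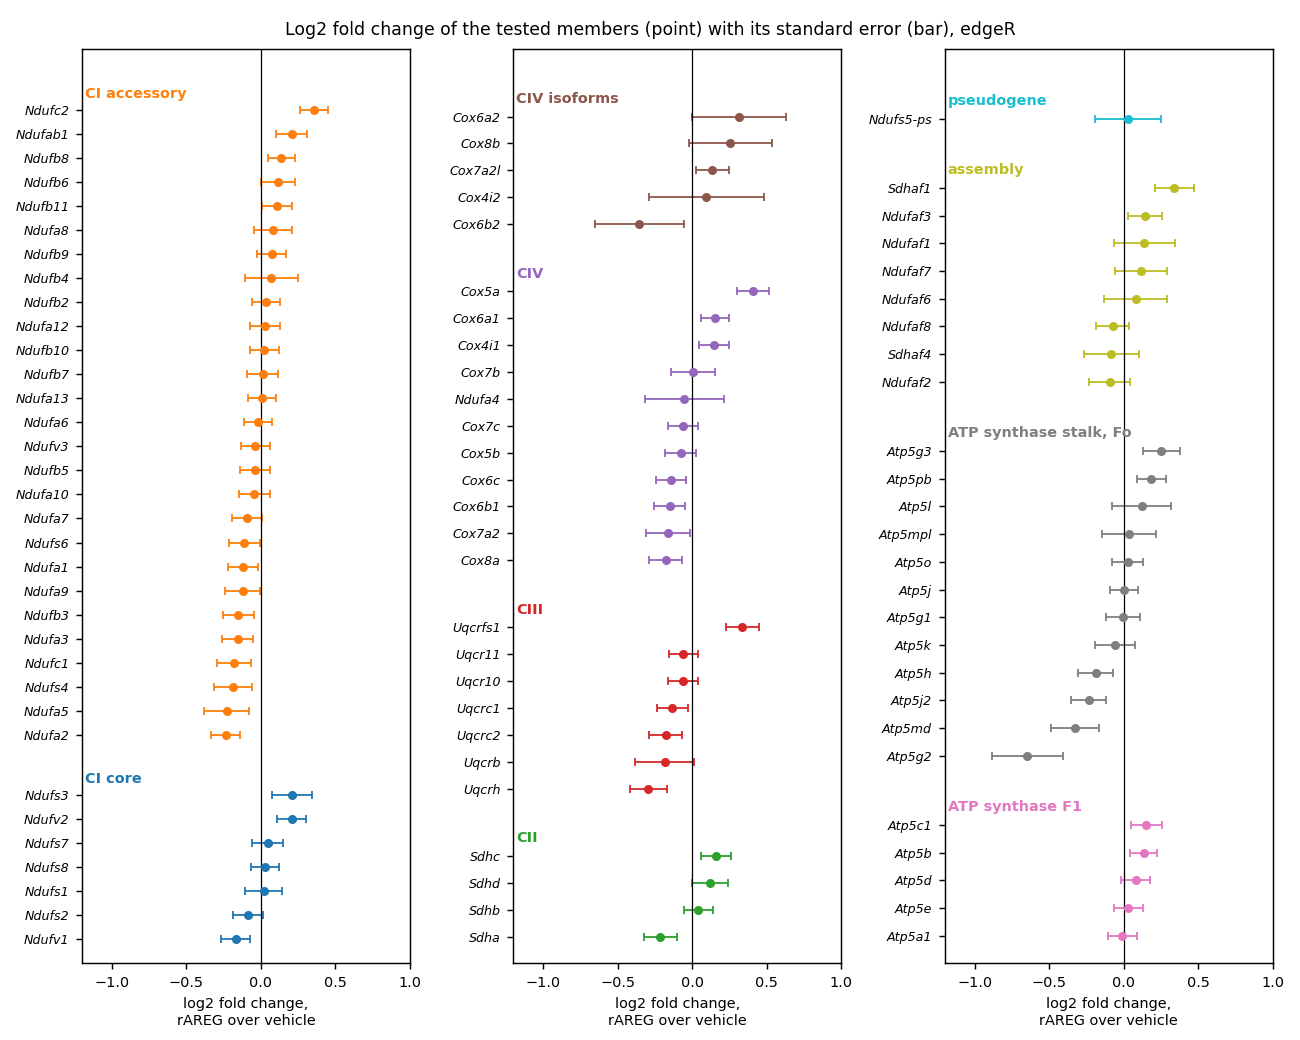
Log2 fold change of rAREG over vehicle for the 87 tested members (points) with its standard error (bars) from edgeR, grouped by complex. Of the 87 points 78 lie within 1.2-fold of no difference, Cox5a and Ndufc2 are the highest, and Atp5g2 is the lowest with a wide bar.

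Cox5a, which encodes the complex IV subunit Va on the matrix side of the enzyme (chromosome 9, 57517328 to 57532427, GRCm38.p6), had 490.1, 449.7, 516 and 579.8 CPM in the 4 vehicle libraries. In the 5 rAREG libraries it had 614, 738, 611, 725 and 687 CPM. All rAREG values lay above all vehicle values, the nearest pair being vehicle 4 and rAREG 3. The group means were 509 ± 54.6 CPM (SD, n = 4) and 675 ± 60.1 CPM (SD, n = 5), which is 0.41 ± 0.11 (SE) on the log2 scale, with a 95% interval of 0.20 to 0.62 and an edgeR adjusted p of 0.066. Over 21 alternatives the log2 fold change was 0.36 to 0.48 and the adjusted p of the tool used (edgeR, DESeq2 or limma) 0.010 to 0.22, passing in 5.

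Ndufc2, a membrane-arm accessory subunit of complex I (chromosome 7, 97400003 to 97407800), had 512, 532, 542 and 539 CPM in vehicle libraries, which were close to each other. It had 641, 728, 650.3, 702 and 686 CPM in rAREG libraries, all higher. The means were 531 ± 13.5 CPM (SD, n = 4) and 682 ± 36.3 CPM (SD, n = 5), which is 0.36 ± 0.094 (SE) on the log2 scale, with a 95% interval of 0.18 to 0.54 and an edgeR adjusted p of 0.068. Over the 21 alternatives its log2 fold change was 0.34 to 0.39 and the adjusted p of the tool used (edgeR, DESeq2 or limma) 0.0014 to 0.25, passing in 4.

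Uqcrfs1, the Rieske iron-sulfur protein of complex III (chromosome 13, 30540312 to 30545316), had 239, 209.7, 228 and 283 CPM in vehicle and 283, 318, 268, 339 and 307 CPM in rAREG libraries. The groups overlapped, vehicle 4 being as high as the lower rAREG libraries. Its log2 fold change was 0.34 ± 0.11 (SE; edgeR adjusted p = 0.15), and without vehicle 4 it was 0.43 (edgeR adjusted p = 0.046). In that fit, where 1.92% of genes were called, Cox5a and Uqcrfs1 passed and Ndufc2 did not.

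**Figure D3:**
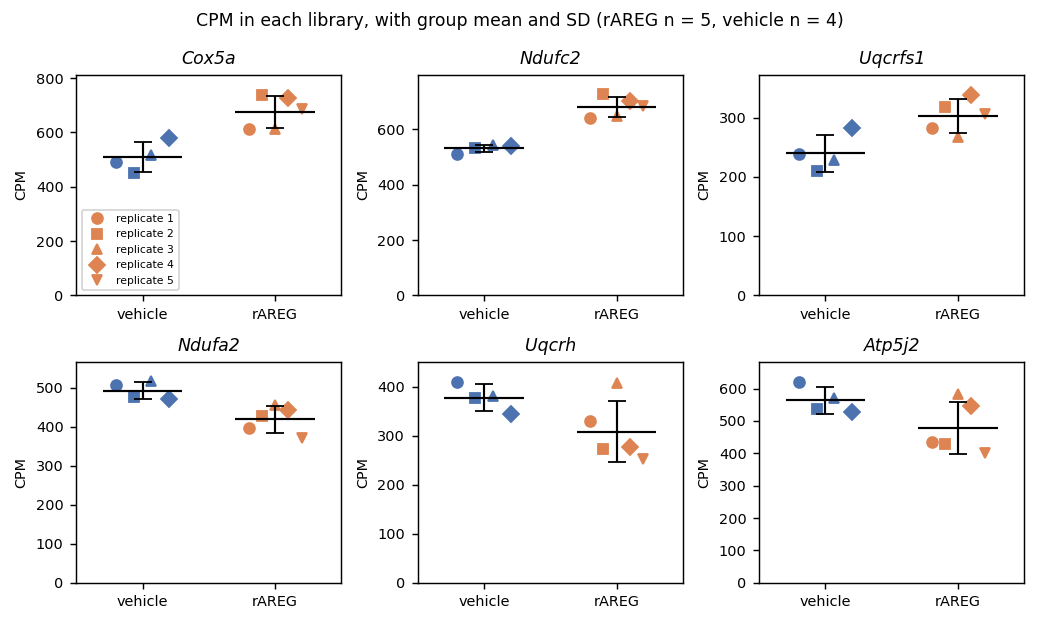
CPM of 6 members in each of the 4 vehicle and 5 rAREG libraries (marker shape, replicate) with group mean and SD (lines and bars). Cox5a and Ndufc2 are higher in every rAREG library than in any vehicle library and Ndufa2 is lower in every one, while Uqcrfs1, Uqcrh and Atp5j2 overlap between the groups.

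Among the complex I core subunits, 5 of 7 estimates were above 0 and the median log2 fold change was 0.029. Ndufv2, part of the module that takes electrons from NADH, had the smallest p of them, with 246, 235, 272 and 264 CPM in vehicle and 266, 279, 301, 311 and 308 CPM in rAREG libraries. The groups overlapped and the log2 fold change was 0.21 ± 0.097 (SE; edgeR adjusted p = 0.37). Its partner Ndufv1, the flavin subunit that binds NADH, had an estimate of the other sign, -0.17 ± 0.097 (edgeR adjusted p = 0.48).

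Of the 27 tested accessory subunits of complex I, 13 estimates were above 0 and 14 below, with a median of -0.018. Ndufa2 had 507, 475, 517 and 470.5 CPM in vehicle and 397, 427, 455, 442 and 372 CPM in rAREG libraries, the rAREG values being all lower. The log2 fold change was -0.23 ± 0.098 (SE; edgeR adjusted p = 0.29). Ndufb8, a membrane-arm subunit, did not overlap either, at 304 ± 12 CPM (SD, n = 4) against 335 ± 11.2 CPM (SD, n = 5), a difference of 0.14 ± 0.092 (SE) on the log2 scale with an edgeR adjusted p of 0.54. In Ndufb8, 31.1% of the 3′ words occur in another gene.

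Complex II had 3 of 4 estimates above 0. The exception was the catalytic subunit Sdha at -0.21 ± 0.11 (SE; edgeR adjusted p = 0.43), and Sdhb was at 0.039 ± 0.097 (SE). In complex III the estimates were below 0 for 6 of 7 subunits, with a median of -0.13 and Uqcrfs1 alone above 0. Uqcrh, the hinge protein that contacts cytochrome c1, had 409, 377, 381 and 344 CPM in vehicle and 329, 273, 407, 277 and 253 CPM in rAREG libraries. All rAREG libraries but rAREG 3 were below the vehicle range, and the log2 fold change was -0.30 ± 0.12 (SE; edgeR adjusted p = 0.29). Cyc1, the cytochrome c1 subunit of the same complex that the symbol rule does not take, had an estimate above 0 like Uqcrfs1, at 0.27 ± 0.10 (SE; edgeR adjusted p = 0.25), with 264 ± 22.5 CPM (SD, n = 4) in vehicle and 317 ± 31.9 CPM (SD, n = 5) in rAREG libraries. The summed level of the 7 complex III members was 2276, 2128, 2109 and 2105 CPM in vehicle and 2049.5, 2043, 2212, 2060.0 and 1858 CPM in rAREG libraries, which overlap.

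In complex IV, 4 of 11 estimates were above 0, with a median of -0.064, and Cox5a was followed by Cox6a1 at 0.15 ± 0.094 (SE) and Cox4i1 at 0.14 ± 0.1 (SE). The lowest were Cox8a at -0.18 ± 0.11 (SE), Cox7a2 at -0.16 ± 0.15 (SE) and Cox6b1 at -0.15 ± 0.10 (SE). Cox5b, which is numbered with Cox5a but is a different protein, was at -0.076 ± 0.10 (SE). The edgeR adjusted p of these 6 ran from 0.50 to 0.81.

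In ATP synthase, 4 of the 5 F1 genes had estimates above 0 (median 0.079). Atp5b, the catalytic subunit, had 1021, 999, 1076 and 1094 CPM in vehicle and 1111, 1130.4, 1158, 1191 and 1158 CPM in rAREG libraries, without overlap, and differed by 0.13 ± 0.092 (SE) on the log2 scale (edgeR adjusted p = 0.56). Of the 12 genes of the stalks and Fo, 6 estimates were above 0 and 6 below. Atp5j2, the f subunit, had 621, 536, 569.6 and 529 CPM in vehicle and 436, 429.9, 584, 545 and 400.0 CPM in rAREG libraries. Of its rAREG values 3 were below and 2 within the vehicle range, and the difference was -0.23 ± 0.12 (SE) on the log2 scale (edgeR adjusted p = 0.40). Atp5md, also called DAPIT, was at 127 ± 26.9 CPM (SD, n = 4) and 101 ± 20.7 CPM (SD, n = 5), with -0.33 ± 0.16 (SE; edgeR adjusted p = 0.40).

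With the dissociation response score as a covariate, several of these estimates moved by more than 1.5 times, and none passed. The score averages the 15 dissociation response genes, of which 12 estimates were themselves below 0. It may therefore carry part of the difference between the groups, and the values below are not cleared of a dissociation effect. Atp5md went to -0.66 (edgeR adjusted p = 0.11) and Atp5j2 to -0.45 (edgeR adjusted p = 0.20). Uqcrh went to -0.50, Ndufa2 to -0.38, Cox7a2 to -0.32 and Cox6b1 to -0.25, all farther below 0. Sdhaf1, an assembly factor described below, went from 0.34 to 0.51.

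The genes Atp5g1, Atp5g2 and Atp5g3 encode the same mature c subunit of the Fo ring with different import sequences. Atp5g3 was the main one at 920.0 ± 142 CPM (SD, n = 4) in vehicle and 1095 ± 171 CPM (SD, n = 5) in rAREG libraries, and its counts were 4.02 times those of Atp5g1 and 45.1 times those of Atp5g2 over all libraries. Atp5g2 had 33.7, 30.3, 29.6 and 18.5 CPM in vehicle and 12.3, 16.9, 11.6, 27.5 and 21.1 CPM in rAREG libraries, which overlap through vehicle 4, rAREG 4 and rAREG 5. Its difference of -0.65 ± 0.24 (SE) on the log2 scale (edgeR adjusted p = 0.22) is the largest in size among the tested members and rests on the transcript of which 98.4% of the 3′ words are shared. Atp5g3 was at 0.25 ± 0.13 (SE; edgeR adjusted p = 0.40) and Atp5g1 at -0.0046 ± 0.12 (SE). The ratio of Atp5g3 to Atp5g1 was 3.47 to 3.82 in vehicle and 3.56 to 4.89 in rAREG libraries.

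The paired complex IV genes were used very unequally. Cox4i1 was counted 213 times as often as Cox4i2, which is known from lung and from low oxygen. Cox6a1 was counted 155 times as often as the heart and muscle form Cox6a2, and Cox8a 78.2 times as often as the muscle form Cox8b. Cox6b1 exceeded the testis form Cox6b2 60.2 times and Cox7a2 exceeded the muscle form Cox7a1 57.2 times. Ndufa4 exceeded Ndufa4l2, known as a hypoxia-induced gene, 14.9 times. For each of these pairs the ratios of the groups overlapped.

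The minor forms were low but present in every library. Cox4i2 had 5, 12, 17 and 16 counts in vehicle and 19, 8, 8, 17 and 13 counts in rAREG libraries. Cox6a2 had 11, 9, 16 and 22 counts in vehicle and 14, 24, 16, 13 and 22 in rAREG libraries, with no order between the groups. The muscle form Cox8b had 17, 13, 14 and 17 counts in vehicle and 8, 17, 25, 21 and 20 in rAREG libraries. Cox6b2 had 31, 14, 25 and 25 counts in vehicle and 17, 9, 17, 30 and 18 in rAREG libraries. The 2 forms left untested were lower still. Cox7a1 had 5, 8, 5 and 8 counts in vehicle and 10, 6, 15, 15 and 4 in rAREG libraries, and Ndufa4l2 had 6, 7, 9 and 10 counts in vehicle and 5, 1, 2, 7 and 11 in rAREG libraries. A library with no count would allow up to 1.39 to 1.94 CPM (3 counts), and such limits cover counting error only. TEC include cells with a muscle-like program, whose 8 markers in the table summed to 54.9 to 102 CPM in vehicle and 43.6 to 281 CPM in rAREG libraries. The log2 fold change was 0.31 ± 0.31 (SE) for Cox6a2 and 0.26 ± 0.28 (SE) for Cox8b, with edgeR adjusted p of 0.72 and 0.75, and the part of muscle-like cells in the levels of the muscle forms was not tested. Cox7a2l, a relative of Cox7a2 that takes part in joining complexes III and IV, was not low, at 271 ± 22.5 CPM (SD, n = 4) in vehicle and 298 ± 36.6 CPM (SD, n = 5) in rAREG libraries, and differed by 0.14 ± 0.11 (SE) on the log2 scale (edgeR adjusted p = 0.63).

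**Figure D4:**
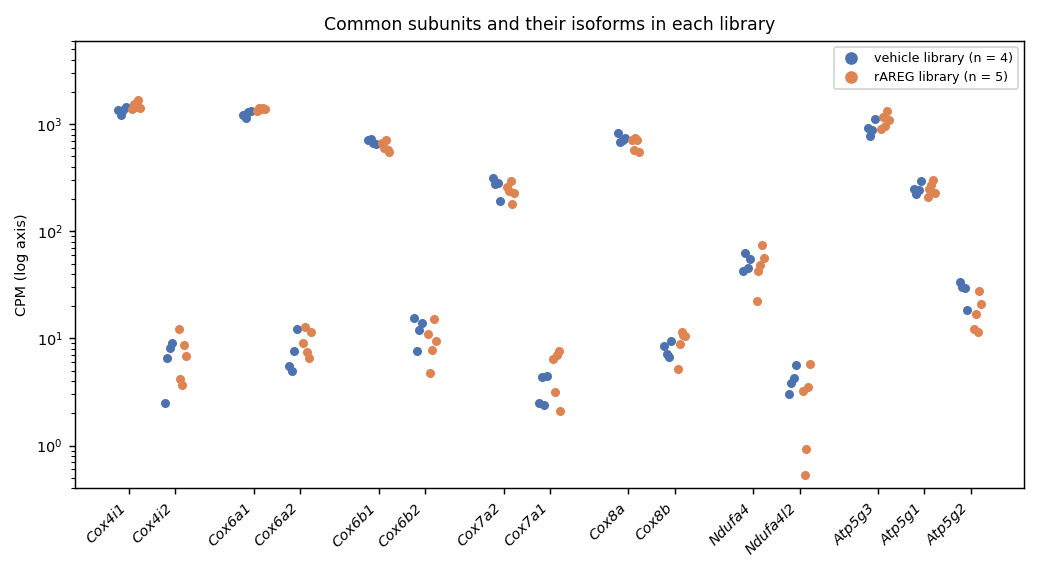
CPM on a log axis of the common complex IV subunits and their paired isoforms, and of the 3 genes of the Fo ring, in each vehicle and rAREG library (points). The common subunits lie at 182 CPM or more except Ndufa4, the paired isoforms lie under 16 CPM in all 9 libraries, and Atp5g3 lies above Atp5g1 and Atp5g2 in both groups.

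Of the 9 assembly factors caught by the symbol rule, 8 were tested, with 5 estimates above 0. Ndufaf8 was the most abundant at a mean of 141 CPM and a difference of -0.075 ± 0.11 (SE) on the log2 scale. Sdhaf1, which helps insert iron-sulfur clusters into Sdhb, had 94.1, 118, 134 and 139.6 CPM in vehicle and 141, 151, 131, 151 and 196 CPM in rAREG libraries. The groups overlapped through rAREG 3, with vehicle 1 the lowest and rAREG 5 the highest library, and the log2 fold change was 0.34 ± 0.13 (SE; edgeR adjusted p = 0.24). Sdhaf3 was counted 5, 8, 5 and 10 times in vehicle and 9, 7, 13, 8 and 8 times in rAREG libraries and was not tested. The pseudogene Ndufs5-ps was at 17.1 CPM with a log2 fold change of 0.031 ± 0.22 (SE).

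Some libraries were the lowest or highest of their group for a larger share of members than of all tested genes, vehicle 4 at both ends. The comparison mixes in the higher counts of the members. Vehicle 2 was the lowest vehicle library for 39 of the 87 members (44.8%, against 23.5% of all tested genes). In the rAREG group, rAREG 1 was the lowest for 34 (39.1%, against 22.1%), while rAREG 3 was the highest for 39 (44.8%, against 19.0%) and rAREG 4 for 32 (36.8%, against 21.8%). Vehicle 4 was the highest vehicle library for 33 (37.9%, against 29.9%) and the lowest for 29 (33.3%, against 29.4%), and vehicle 1 was the highest for 32 (36.8%, against 25.8%).

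A smaller set was low in the same pair of libraries. In 13 of the 87 members (14.9%, against 8.49% of all tested genes) the lowest vehicle library was vehicle 4 and the lowest rAREG library was rAREG 4. Uqcrb, a small subunit of complex III, had 246, 247, 218 and 124 CPM in vehicle and 180.0, 197, 234, 146 and 161 CPM in rAREG libraries. The value of vehicle 4 was 0.52 times the mean of the other vehicle libraries, and that of rAREG 4 was 0.76 times the mean of the other rAREG libraries. In Uqcrb, 40.6% of the 3′ words occur in another gene, and it overlaps Gm10767, a gene of the table on the opposite strand. Ndufb4, an accessory subunit of complex I, had 145, 144, 131 and 80.8 CPM in vehicle and 129, 143, 151, 90.5 and 144 CPM in rAREG libraries, which gives 0.58 and 0.64 times. Cox7b, Cox7a2, Atp5k, Atp5mpl and Ndufa5 were among the others. The labels give no batch, and the source of these library differences was not tested.

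**Figure D5:**
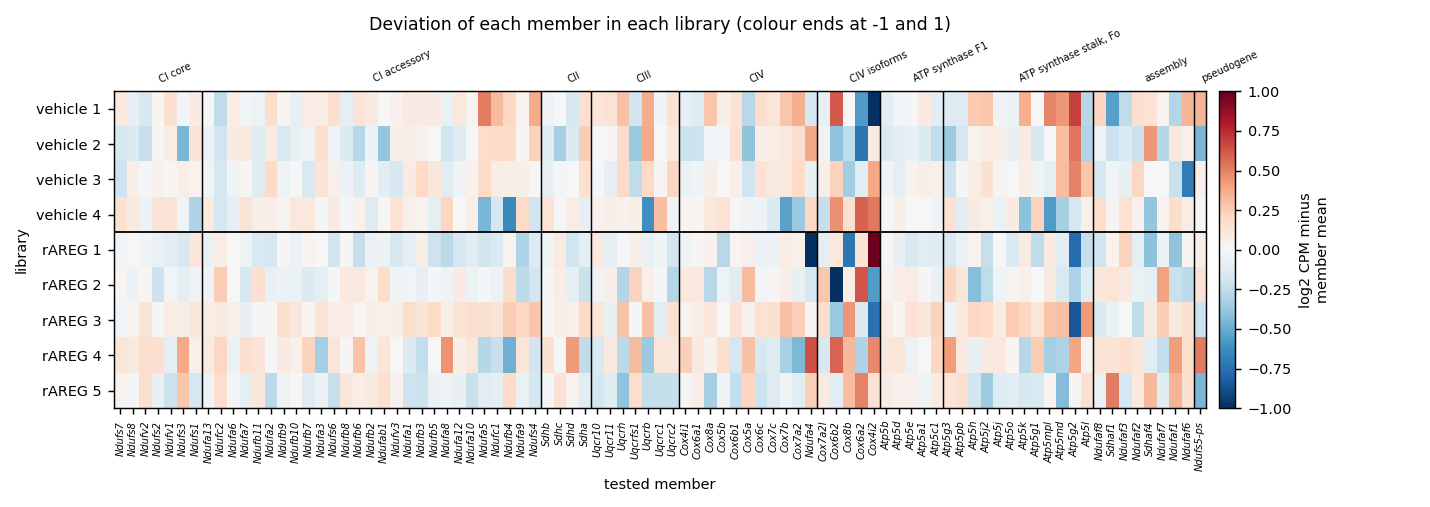
Deviation of each of the 87 tested members from its own mean in each of the 9 libraries (colour, log2 CPM minus the member's mean, colour ends at -1 and 1), ordered by complex. Columns such as Uqcrb, Ndufb4, Cox7b and Atp5mpl are blue in vehicle 4 and rAREG 4, and the Cox5a column turns from blue to red between the groups.

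Other lists of mitochondrial genes and of glycolysis genes gave no call either. Among 15 tested genes listed for the respiratory chain outside the symbol rule, 30 of assembly, 18 of the TCA cycle, 12 of glycolysis, 14 of mitochondrial biogenesis and 20 of protein import, no gene passed an edgeR adjusted p of 0.05. Limma voom likewise called 0 of these 109 genes, and DESeq2 called 0 of the 102 counted for it. At an unadjusted p under 0.05 there were 4, 3, 1, 0, 2 and 0 genes in the same order, or 26.7%, 10.0%, 5.56%, 0%, 14.3% and 0% of each list, against 13.3% of all tested genes. The 4 include Aox1, an aldehyde oxidase that is not part of the chain and had the smallest p of its list. Its log2 fold change was -0.70 (edgeR adjusted p = 0.12). The most abundant of each list were Cyc1, Cox17, Mdh2, Aldoa, Esrra and Timm13. Cox17, the copper chaperone of complex IV, had 503, 484, 502 and 416 CPM in vehicle and 530.3, 602, 552, 593 and 524 CPM in rAREG libraries, which do not overlap. Its log2 fold change was 0.23 ± 0.1 (SE; edgeR adjusted p = 0.30). Mdh2, a TCA cycle enzyme, was at 0.042 ± 0.094 (SE), Aldoa of glycolysis at 0.093 ± 0.11 (SE), Esrra, a nuclear receptor that activates respiratory genes, at -0.023 ± 0.12 (SE), and Timm13 of the import machinery at 0.098 ± 0.12 (SE). Nrf1, Gabpa and Yy1, whose motifs are described above, were at -0.23, -0.43 and -0.092 on the log2 scale. Their edgeR adjusted p were 0.68, 0.33 and 0.87. Gabpa overlaps the more abundant Atp5j on the opposite strand, and the handling of strand is not known. Of the 14 tested biogenesis genes, 6 estimates were above 0 and 8 below. Polg2, with the smallest p of that list, was at 0.42 (edgeR adjusted p = 0.14).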

How the data were processed

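TEC were sorted into lysis buffer and MARS-seq libraries made, per the labels' protocols. Per the submitters' processing notes, STAR 2.5.2b, HTSeq, cutadapt, bcl2fastq and DESeq2 were used, in roles not listed, with build mm10. The sources used here do not give how strand and multi-mapping reads were handled. The authors deposited raw counts per gene and library, on which every test rests. Their deposited log2 fold changes and adjusted p-values are quoted where named, and 18 other per-sample columns were not used. The lowest maximum of any gene over the libraries was 6 counts, which shows a filter on low genes.

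The test was edgeR's robust quasi-likelihood F test (edgeR 4.0.16, R 4.3.3) on 5 rAREG and 4 vehicle libraries without covariates, with TMM scaling. Genes were filtered by filterByExpr, which removed 3444, and p was adjusted by Benjamini-Hochberg over the remaining 11636. A gene is called at an adjusted p under 0.05. The biological coefficient of variation was 0.148. CPM use TMM-scaled library sizes, and standard errors come from the F statistic. The 95% intervals multiply these by a normal quantile and are narrower than the F test implies. For Atp5g3 the interval of 0.0059 to 0.50 lies wholly above no difference, while the unadjusted edgeR p was 0.058. The steps were tested on simulated data. Of genes changed 1.2-fold, 1.5-fold and 2-fold there, edgeR called 0%, 21.8% and 68.8%. At 50 CPM or more it called 0%, 36.8% and 95%, of 34, 19 and 20 changed genes. The median tested member, at 275 CPM, lies above that limit, and genes of that level were not looked at apart. Of the calls made by edgeR, 5.08% were false. A gene that is not called is therefore not shown to be unchanged. DESeq2 1.42.0 and limma 3.58.1 gave alternatives. Symbols matched RefSeq (GRCm38.p6) for 91 members and GENCODE M21 for 87.

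The members, lists, tests and motifs were chosen with earlier results of these data known. The rule for naming took members with an adjusted p under 0.05, the 5 smallest p-values in each direction, the most abundant gene of each list, paired isoforms and filtered members. Other named genes were chosen after their values were seen.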

Additional observations from a re-analysis of the deposited data

Results flagged for a closer look

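In 84 groups of values checked (named members and summed levels, in each group of libraries), 3 had a library farther from the rest than Dixon's 95% limit allows, and chance flags about 1 in 20. Sdhb, the iron-sulfur subunit of complex II, was at 364.7 CPM in rAREG 4, while the other rAREG libraries were at 317 to 331 CPM. The summed level of the complex III members was 2276 CPM in vehicle 1, while the other vehicle libraries were at 2105 to 2128 CPM. The summed level of the assembly factors was 542 CPM in vehicle 4, while the other vehicle libraries were at 479 to 482 CPM.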

How the results depend on the processing

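Of 122 genes called by edgeR, the count was 192 with DESeq2, 302 with the replicate block, 45 with the dissociation score as covariate and 18 to 230 with 1 library left out (without vehicle 1, 2 or 4: 18, 43 and 230; without rAREG 1, 2 or 4: 58, 28 and 54). Members called, 0 in the reported fit, were 2 (Cox5a and Ndufc2) with DESeq2, limma voom, total counts and the replicate block, and 0 to 2 with 1 library left out (2, Cox5a and Uqcrfs1, without vehicle 4). The members' median log2 fold change was -0.065 with the dissociation score as covariate (all genes -0.0058) and -0.023 to 0.030 with 1 library left out. The cause was not tested, and the dissociation score may itself carry part of the difference between the groups. Estimates near 0 changed sign. Atp5g1 gave 0.0016 with the filter at 10 counts, 0.0050 with voom, 0.019 with log2 total as covariate, 0.034 with the replicate block, 0.017 with total counts and 0.0068 with upper-quartile factors. Cox4i2 gave -0.041 with log2 total and -0.015 with the replicate block by library number. Ndufa13 gave -0.016 with the dissociation score and -0.012 with the block by library number. With 1 library left out, the ranges were -0.069 to 0.075 for Atp5g1, -0.18 to 0.28 for Cox4i2, -0.012 to 0.044 for Ndufa13, -0.25 to 0.12 for Ndufa4 and -0.0059 to 0.11 for Ndufs7. Of named members with an estimate of at least 0.1 in size, 12 moved by more than 1.5 times in some alternative, none passing: 10 with the dissociation score (among them Cox6a2 to 0.59, Cox6b2 to -0.13 and Cox7a2l to 0.013, the others given above), Cox6b2 (-0.57) and Cox7a2 (-0.057) with the block by library number and Cox8a (-0.12) with the replicate block. With 1 library left out these were Cox7a2 (-0.072 without vehicle 1, -0.074 without rAREG 4, -0.29 without vehicle 4), Cox7a2l (0.081 without rAREG 2, 0.088 without vehicle 4), Cox8a (-0.12 without vehicle 1, -0.11 without rAREG 5), Cox8b (0.40 without rAREG 1), Cox6a2 (0.19 without rAREG 2 or vehicle 1, 0.16 without vehicle 2, 0.63 without vehicle 4) and Cox6b2 (-0.18 without rAREG 2, -0.22 without vehicle 1, -0.58 without rAREG 4). These included, 577 comparisons of named members kept direction and side of the threshold, and 10 newly passed it. Whether equal replicate numbers mark pairs of libraries was not settled. Same-numbered deviations correlated at -0.025 to 0.17 by title number and -0.036 to 0.080 by library number, over the numbers both groups share. Vehicle 3 and 4 matched their own title number best, vehicle 1 and 2 did not. The block fits left out the library without a partner, rAREG 5 by title number and rAREG 4 by library number. The block by title number called 302 genes and 2 members, against 126 and 0 on the same libraries without the block. The block by library number called 169 genes and no member, against 54 and no member on the same libraries without it. Library totals of 1523246 to 2159115 counts limit the minor isoforms, which had 1 to 31 counts per library.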
